A study of Mus musculus with 4 samples.

Results

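The genes described here are 9 interferon-stimulated genes, chosen by symbol among the 55401 genes of the deposited table: the signalling factors Stat2, Irf9 and Irf7, the RNA sensor Ifih1, and the effectors Isg15, Ifit1, Ifit2, Oasl2 and Bst2. Each symbol matched 1 gene. They were measured by RNA-seq in E14 cells, a line of mouse embryonic stem cells (mESCs), in 2 WT libraries and 2 Haspin-KO libraries. Haspin, the kinase that phosphorylates histone H3 at threonine 3 in mitosis, was knocked out with CRISPR/Cas9, and WT cells are the unedited E14 cells. The study's general medium for mESCs was knockout-DMEM with fetal bovine serum, LIF and 2i, and its RNA-seq methods name no medium or treatment. The Haspin-KO clones had been transfected with guide plasmids and selected with puromycin before they were picked. The study describes no such step for WT cells. The study made a pair of Haspin-KO lines from single clones picked for lack of the histone mark, and the labels do not say which line each library came from, or that replicates were separate cultures. The p-values therefore measure only the spread between these libraries, which the test pools in part over genes. The study maintained mESCs on mouse embryonic fibroblasts for passage or on gelatin for assays, and the sources used here do not say which plates gave the RNA.

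Cells sense viral or misplaced nucleic acids through RNA sensors such as MDA5 (encoded by Ifih1) and RIG-I (encoded by Ddx58) and through the DNA sensor cGAS, which signal by way of MAVS or STING to the genes for type I interferon. Secreted interferon binds the receptor IFNAR1 and IFNAR2, the kinases JAK1 and TYK2 phosphorylate STAT proteins, and a complex with STAT2 and IRF9 binds the interferon-stimulated response element (ISRE) of its target genes. Embryonic stem cells are known for a weak interferon response. The comparison of Haspin-KO with WT cells asks whether the levels of these genes differ.

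The binding sequence was searched in the RefSeq promoters of GRCm38.p6, which run from 250 bases before to 50 bases after each start site and which matched all 9 genes. The ISRE core was searched as GAAA, any 2 bases and GAAA again, on both strands, so that it reads TTTC, 2 bases and TTTC on the other strand, and overlapping matches were counted. It was found in 5 of the 9 genes (55.6%), against 1079 of 27025 genes (3.99%) and 1131 of 32851 promoters (3.44%) overall. The upstream matches are shown because they mark both genes with enough reads to be tested in mESCs and genes without. Each line gives 30 bases, 5′ to 3′ on the strand of the gene, with the matches in capitals.
Isg15, chr4:156200871-156200900, minus strand: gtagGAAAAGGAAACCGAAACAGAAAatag
Ifit1, chr19:34640785-34640814, plus strand: TTTCACTTTCcagtctcagTTTCAGTTTCt
Stat2, chr10:128270266-128270295, plus strand: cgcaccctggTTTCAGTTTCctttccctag
Bst2, chr8:71537580-71537609, minus strand: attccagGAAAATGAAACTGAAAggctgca

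Isg15 held 3 overlapping matches between positions -78 and -57 from the start site, Ifit1 held 2 between -104 and -76, and Bst2 held 2 between -130 and -115. Stat2 held 1 match further upstream, from -222 to -213. In Ifih1 the match lay after the start site, at position 33. The windows of Ifit2, Irf7, Irf9 and Oasl2 did not hold these letters. The letters TTCNNNGAA, the palindromic GAS element, were found in 2 of the 9 genes, Ifit2 and Bst2, against 9.55% of all genes, and in Bst2 they overlap the start of the ISRE-like run. Matches are descriptions of letters and were not tested for binding.

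The libraries held 21834847 and 17452307 counted reads in WT cells and 14207828 and 14436750 in Haspin-KO cells, so the shallower libraries were all Haspin-KO. At most 3 counts in a library are called the floor here, between 0.137 and 0.211 CPM (counts scaled to library depth) by library. Haspin itself had 875 and 619 counts in WT cells and 149 and 209 in Haspin-KO cells, and its log2 fold change of -1.60 (SE, the standard error, 0.16) passed the test at an edgeR adjusted p of 0.00154. Counts over the whole gene do not show which part was edited. All 10 markers of pluripotent cells were tested and 0 were called. Their summed level was 6700 and 6983 CPM in WT cells and 6300 and 6505 CPM in Haspin-KO cells. Of the 10, 8 had a log2 fold change below 0 and 2 above, against 7890 below 0 among the 15580 tested genes. Klf4 had the lowest, -0.29 (adjusted p = 0.0604 from edgeR and 0.0341 from DESeq2). Of 10 leukocyte markers, 6 were at the floor in every library, and of these Ptprc, Adgre1, Lyz2 and Tyrobp had 0 counts throughout. Cd68, the 1 tested, had 312 and 195 counts in WT cells and 149 and 151 in Haspin-KO cells (edgeR adjusted p = 0.349). Csf1r, Itgam and Fcer1g exceeded the floor in some library but were too low to test. Of 20 fibroblast markers, 14 were tested and 8 were called lower in Haspin-KO cells, and the summed level of all 20 was 297.1 and 224.7 CPM in WT cells against 73.0 and 69.3 CPM in Haspin-KO cells. Lox, Postn, Dcn, Fap, Twist2 and S100a4 had 0 counts in both Haspin-KO libraries, and Lum had 0 counts in all libraries. In WT cells Lox had 1215 and 657 counts, Postn 171 and 77 and S100a4 22 and 9. Dcn had only 4 and 2 in WT cells, Twist2 1 and 3 and Fap 1 and 0. Of the tested markers that were not called, Pdgfra had a log2 fold change of 0.30. Those of Fbn1, Twist1, Col5a1, Thy1 and Pdgfrb were -0.10, -0.18, -0.28, -0.51 and -0.85. Which cells the fibroblast marker transcripts came from was not measured. In bulk RNA, fewer cells of a type and less RNA per cell cannot be told apart.

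The 9 genes fell into a set with enough reads to test and a set at or near the floor (the plot of reads by gene). Isg15, Ifit1, Irf7 and Oasl2 were at the floor in every library, and Ifih1 exceeded it in 1 library only. Stat2, Irf9, Bst2 and Ifit2 had enough reads for edgeR's filter and were tested. A gene was called where edgeR's quasi-likelihood test gave an adjusted p under 0.05 with more than a 2-fold change. By this rule 0 of the 9 were higher and 0 lower in Haspin-KO cells, against 0.327% of the 15580 tested genes called higher and 0.501% called lower. DESeq2 called 0 of the 9, with 47 genes called higher and 45 lower among the 12813 to which it gave an adjusted p. At an unadjusted p under 0.05, edgeR gave 2 genes, Stat2 and Bst2, both with the lower level in Haspin-KO cells, against 10.4% of tested genes on that side.

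**Figure D1:**
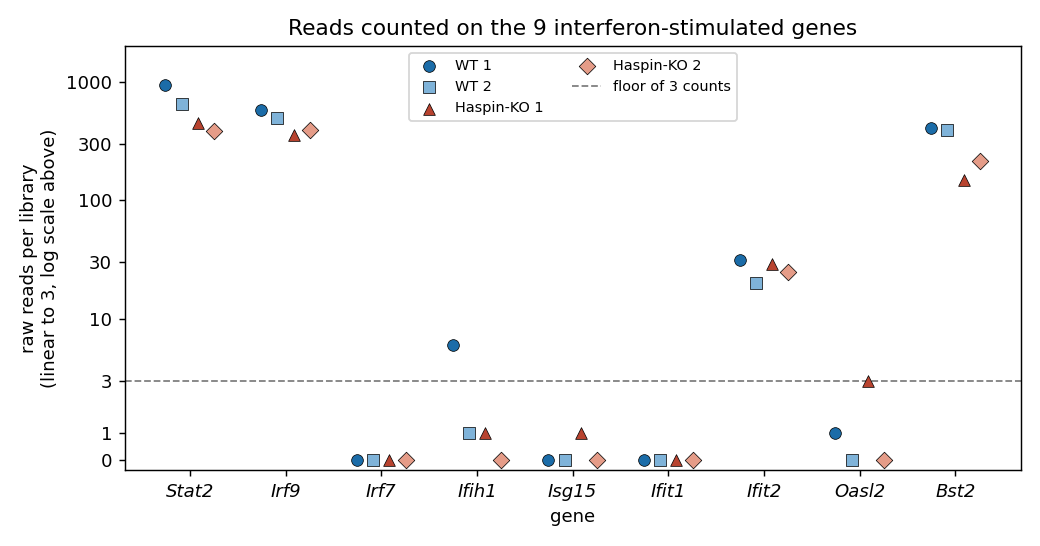
Raw reads counted on each of the 9 genes in the 4 libraries, on a scale that is linear up to 3 and logarithmic above, with the floor of 3 counts as a dashed line. Stat2, Irf9 and Bst2 lie above 100 reads in every library and Ifit2 between 20 and 31, whereas Irf7 and Ifit1 lie at 0 in all libraries and Isg15, Oasl2 and Ifih1 at or near 0.

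STAT2 and IRF9 belong to the complex that binds the ISRE. Stat2 (ENSMUSG00000040033, chromosome 10 of mm10, from 128270559 to 128292849, plus strand) had 935 and 644 counts in WT cells and 450 and 380 in Haspin-KO cells. Per depth this was 42.8 and 37.2 CPM against 31.3 and 26.6 CPM. Both Haspin-KO libraries lay below both WT libraries, as they did for 26.9% of all tested genes. The level of Stat2 was 40.0 ± 3.996 CPM in WT cells and 29.0 ± 3.34 CPM in the knockout (n = 2 libraries in each group, SD). The log2 fold change of Stat2 was -0.47 (standard error 0.12), a ratio of 0.724 with a 95% interval from 0.601 to 0.872, and its adjusted p was 0.0757 from edgeR, so the difference did not pass the test. Without the filter on low counts the adjusted p was 0.00758, and without Haspin-KO replicate 1 it was 0.00519, at fold changes still under 2.

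Irf9 (ENSMUSG00000002325, chromosome 14, from 55603571 to 55610030, plus strand) had 579 and 497 counts in WT cells and 355 and 389 in Haspin-KO cells. The level of Irf9 was 26.5 and 28.7 CPM in WT cells and 24.7 and 27.2 CPM in Haspin-KO cells, so the groups overlapped. The log2 fold change was -0.09 (SE 0.11, edgeR adjusted p = 0.711), and the 95% interval of the ratio ran from 0.790 to 1.12. Another gene on the same strand, Rnf31, shares 2.3% of the exonic bases of Irf9.

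IRF7 amplifies the transcription of the type I interferon genes. Irf7 (ENSMUSG00000025498, chromosome 7, from 141262706 to 141266481, minus strand) had 0 counts in each of the 4 libraries. A count of 0 allows up to 3 counts, which for Irf7 is a level between 0.0364 and 0.0559 FPKM depending on the library, for counting error only. All of its stretches of 50 bases in the GENCODE M21 transcripts occur in no other gene, and Phrf1 on the opposite strand shares 1.2% of its exonic bases.

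MDA5, the product of Ifih1, binds long double-stranded RNA in the cytosol. Ifih1 (ENSMUSG00000026896, chromosome 2, from 62595798 to 62646255, minus strand) had 6 and 1 counts in WT cells and 1 and 0 in Haspin-KO cells. Only WT replicate 1, the deepest library, was above the floor, and Ifih1 did not pass the filter on low counts.

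ISG15 is a ubiquitin-like protein that is joined to other proteins, IFIT1 and IFIT2 bind RNA or ribosomal factors, and OASL2 belongs to the oligoadenylate synthetase family. Isg15 (ENSMUSG00000035692, chromosome 4, from 156199455 to 156200796, minus strand) had 0 and 0 counts in WT cells and 1 and 0 in Haspin-KO cells. Ifit1 (ENSMUSG00000034459, chromosome 19, from 34640871 to 34650009, plus strand) had 0 counts in every library, and Oasl2 (ENSMUSG00000029561, chromosome 5, from 114896936 to 114912234, plus strand) had 1 and 0 counts in WT cells and 3 and 0 in Haspin-KO cells. A difference between the groups was not detectable at this depth for these genes. The limit that 3 counts set was between 0.195 and 0.300 FPKM for Isg15, between 0.0517 and 0.0795 FPKM for Ifit1 and between 0.0216 and 0.0331 FPKM for Oasl2. Of their stretches of 50 transcript bases, 96.0% for Isg15, 92.9% for Ifit1 and 99.9% for Oasl2 occur in no other gene.

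Ifit2 (ENSMUSG00000045932, chromosome 19, from 34550694 to 34576419, plus strand), which lies in the same cluster as Ifit1, was the member with low but steady counts. It had 31 and 20 counts in WT cells and 29 and 25 in Haspin-KO cells. Per depth these were 1.42 and 1.15 CPM against 2.02 and 1.75 CPM, so both Haspin-KO libraries lay above both WT libraries, as they did for 25.3% of tested genes. The log2 fold change was 0.54 (SE 0.34, edgeR adjusted p = 0.389), and the 95% interval of the ratio, from 0.862 to 2.45, held both no difference and a doubling. DESeq2 gave Ifit2 no adjusted p.

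BST2, or tetherin, holds budding virus particles at the cell surface. Bst2 (ENSMUSG00000046718, chromosome 8, from 71534255 to 71537456, minus strand) had 409 and 393 counts in WT cells and 148 and 215 in Haspin-KO cells. Per depth these were 18.7 and 22.7 CPM against 10.3 and 15.1 CPM. Both Haspin-KO libraries lay below both WT libraries, as for 26.9% of tested genes. The level was 20.7 ± 2.79 CPM in WT cells and 12.7 ± 3.36 CPM in the knockout (n = 2 libraries in each group, SD). The log2 fold change of Bst2 was -0.70 (standard error 0.19), a ratio of 0.614 with a 95% interval from 0.460 to 0.820, and the adjusted p was 0.0796 from edgeR. The difference in Bst2 did not pass the test.

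The call for Bst2 turned on a single library. Without Haspin-KO replicate 2 the log2 fold change was -1.01 (adjusted p = 0.000469 from edgeR) and Bst2 was called lower, whereas without Haspin-KO replicate 1 it was -0.45 (adjusted p = 0.131). Without the filter on low counts the adjusted p was 0.00198 at a log2 fold change of -0.73, which is under 2-fold and so was not called. The summed level of the fibroblast markers was lower in Haspin-KO cells, as were Bst2 and Stat2 (the plot of levels by library), and the markers' part in these differences was not tested.

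**Figure D2:**
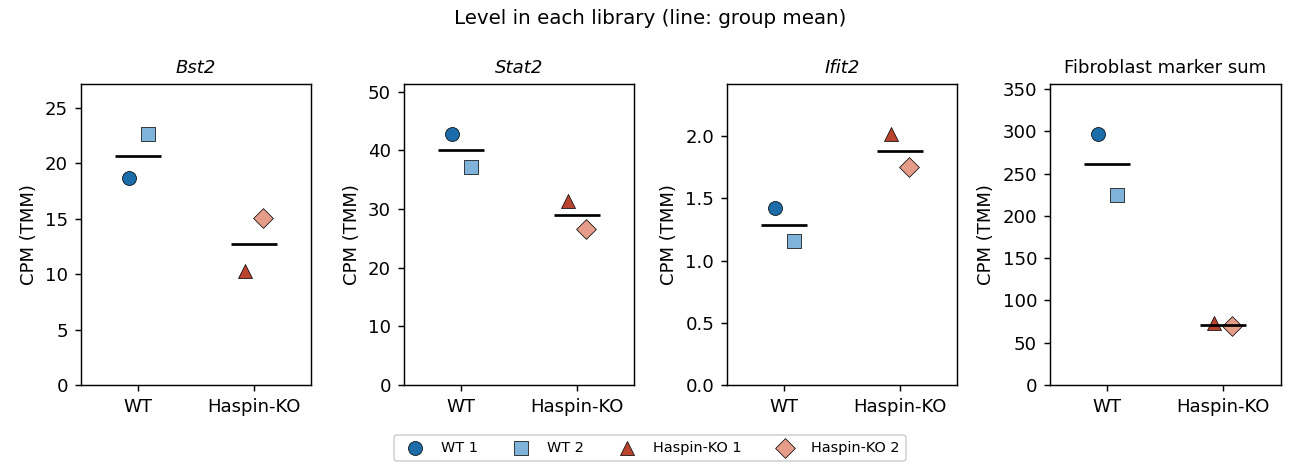
CPM after TMM normalization of Bst2, Stat2, Ifit2 and the sum of the 20 fibroblast markers in each WT and Haspin-KO library, with the mean of each group as a line and every axis starting at 0. Bst2 and Stat2 are lower and Ifit2 higher in both Haspin-KO libraries, beside a marker sum of 297.1 and 224.7 CPM in WT cells and 73.0 and 69.3 CPM in Haspin-KO cells.

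Per length of transcript, Bst2 was the most abundant of the 9 genes, with 22.8 ± 2.97 FPKM in WT cells and 14.01 ± 3.50 FPKM in Haspin-KO cells, and its lowest library lay above the highest of every other member. FPKM are reads per kilobase of exon and per depth. This mean over the 4 libraries lay above that of 79.7% of the tested genes. Stat2 followed with 6.73 ± 0.707 and 4.89 ± 0.636 FPKM, and Irf9 with 5.11 ± 0.262 and 4.82 ± 0.255 FPKM. The levels of Stat2 and Irf9 overlapped over the libraries, from 4.44 to 7.23 FPKM and from 4.64 to 5.29 FPKM, and both lay near the middle of the tested genes, above 54.1% and 50.5% of them. Ifit2 was next with 0.325 ± 0.0495 and 0.480 ± 0.0566 FPKM, above 10.1% of the tested genes. The other 5 genes had no order that the counts could support.

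The median log2 fold change of the 4 tested members was -0.28, against -0.0039 over all tested genes. The mean of their centred log2 CPM was 0.106 and 0.082 in WT cells and -0.125 and -0.062 in Haspin-KO cells. The non-member genes closest to this profile over the 4 libraries were Ykt6, Tpm4, Clstn1, Slc9a5 and Mcrs1, with root mean square distances between 0.00609 and 0.00889 on the log2 scale against a median of 0.174 over all tested genes. Their own adjusted p values from edgeR lay between 0.160 and 0.576. The single members stood further from the mean profile than these genes did, from 0.0748 for Irf9 to 0.377 for Ifit2.

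The wider pathway was read from 4 lists of 122 genes in all, of which 76 were tested. Across these lists edgeR called 0 genes higher and 0 lower, and DESeq2 called 0. At an unadjusted p under 0.05, edgeR gave 1 gene higher and 10 lower, against 10.4% of all tested genes on each side. The median log2 fold change of the 76 genes was -0.097, and 48 of them lay below 0 and 28 above. Over all 15580 tested genes the median was -0.0039, with 7890 below 0 and 7690 above.

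**Figure D3:**
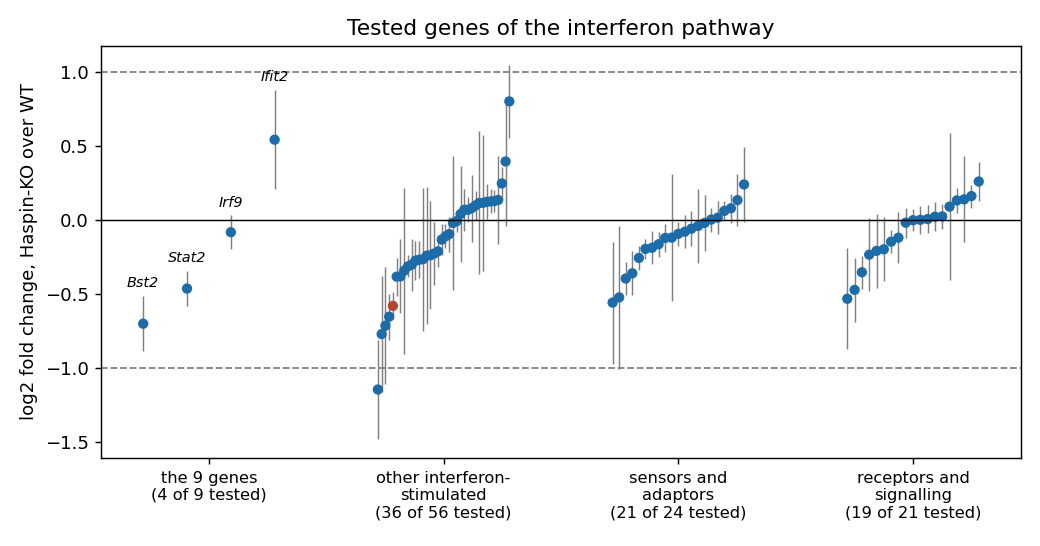
Log2 fold change of Haspin-KO over WT for every tested gene of 4 lists, sorted within each list, with standard errors as bars, the adjusted p under 0.05 in red and dashed lines at a 2-fold change. Ifitm1 is the 1 red point, and Bst2, Stat2 and Irf9 lie below 0 and Ifit2 above.

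Transcripts of the interferons themselves were at the floor. All 21 interferon genes, from Ifnb1 through the Ifna cluster to Ifng and Ifnl3, were at the floor in every library, and 18 of them had 0 counts throughout. Together they had 0 and 4 counts in WT cells and 0 and 2 in Haspin-KO cells. Many Ifna genes are near-identical copies, and between 32.6% and 87.8% of the 50-base stretches of those under 90% occur in no other gene, so counts of these copies are uncertain. The ISRE core was found in 11 of 20 interferon genes with a promoter.

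The machinery that receives and passes on interferon was counted in both groups. Of 21 receptor and signalling genes, 19 were tested, 0 were called, and Irf4 was at the floor. The receptor gene Ifnar1 had 59.1 ± 2.07 CPM in WT cells and 64.7 ± 3.09 CPM in Haspin-KO cells, and Ifnar2 had 10.8 ± 0.0113 and 9.92 ± 1.92 CPM. The kinase genes Jak1 and Tyk2 had 96.7 and 69.2 CPM in WT cells and 107.9 and 70.1 CPM in Haspin-KO cells. The smallest unadjusted p values were those of Ptpn6, a phosphatase gene (log2 fold change -0.36, adjusted p = 0.118 from edgeR), Ifnlr1, the receptor of type III interferon (-0.48, adjusted p = 0.253), and Jak1 (0.16, adjusted p = 0.278).

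Sensors of RNA and DNA were mostly counted as well. Of 24 sensor and adaptor genes, 21 were tested and 0 were called. Ddx58, which encodes RIG-I, had 52.2 and 85.8 CPM in WT cells and 50.3 and 83.2 CPM in Haspin-KO cells (log2 fold change -0.04, edgeR adjusted p = 0.945). Its replicates thus differed more than its groups. The adaptor gene Mavs had 53.9 ± 3.20 CPM in WT cells and 49.5 ± 3.69 CPM in Haspin-KO cells. Cgas had 8.28 ± 1.10 and 9.04 ± 0.407 CPM, and Sting1, its partner, had 19.2 ± 2.59 and 14.9 ± 1.69 CPM with a log2 fold change of -0.36 (adjusted p = 0.210). Tlr3, a sensor of double-stranded RNA in endosomes, had 1 and 2 counts in WT cells and 6 and 5 in Haspin-KO cells, above the floor only in the Haspin-KO libraries and too low to test.

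The sensor and adaptor genes with the smallest unadjusted p values were Rnaseh2c, Rnaseh2a and Pcbp1, with log2 fold changes of -0.40, -0.26 and -0.20 and adjusted p values of 0.0941, 0.126 and 0.139 from edgeR. RNase H2, to which Rnaseh2c and Rnaseh2a belong, removes RNA from RNA-DNA hybrids. Rnaseh2c had 27.1 ± 0.251 CPM in WT cells and 20.5 ± 1.00 CPM in Haspin-KO cells. Trex1, an exonuclease that clears cytosolic DNA, had 0 counts in every library, and Atrip shares 100% of its exonic bases on the same strand, so its count is uncertain.

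Of 56 other interferon-stimulated genes, 36 were tested and 14 were at the floor in every library, the latter among them Mx1, Mx2, Usp18, Ifit3, Ifi44 and Gbp3. Ifit3 has a near-identical copy, Ifit3b, and 48.8% of the 50-base stretches of Ifit3 occur in no other gene, so its count is uncertain. This share at the floor, 25.0%, lay near the 29.6% of all protein-coding genes, and that of the 9 members was 44.4%. With no minimum on the fold change, 1 gene of the list passed an adjusted p under 0.05 from edgeR. Of all tested genes, 1.51% did so on the lower side and 0.988% on the higher side. The gene was Ifitm1, an antiviral membrane protein gene that early embryonic cells also express. DESeq2 gave 2 genes of the list an adjusted p under 0.05, Ifitm1 and Ifitm2, both lower, against 274 lower among 12813 genes.

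Ifitm1 fell from 61.9 and 57.6 CPM in WT cells to 40.9 and 38.9 CPM in Haspin-KO cells, by 0.58 on the log2 scale (SE 0.091, edgeR adjusted p = 0.0152), which is under a 2-fold change. The summed level of the fibroblast markers was also lower in Haspin-KO cells, and their part in this difference was not tested. Ifitm2, of which 40.9% of exonic bases are shared with Gm45717, had a log2 fold change of -0.32. Its adjusted p was 0.0593 from edgeR and 0.0313 from DESeq2. H2-K1, a gene of class I antigen presentation, had 17.3 ± 2.35 CPM in WT cells and 10.96 ± 0.942 CPM in Haspin-KO cells (log2 fold change -0.66, adjusted p = 0.0598). Tap1, which carries peptides to class I molecules, went the other way, with 4.09 ± 1.14 and 7.19 ± 1.25 CPM (0.80, adjusted p = 0.117). Oasl1, a paralog of the uncounted Oasl2, had 3.11 and 3.58 CPM in WT cells and 1.95 and 1.05 CPM in Haspin-KO cells (log2 fold change -1.15, adjusted p = 0.102). Oas1a had 36.2 ± 4.94 and 29.9 ± 3.97 CPM, and its reads are uncertain because 42.4% of its 50-base stretches occur in no other gene.

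**Figure D4:**
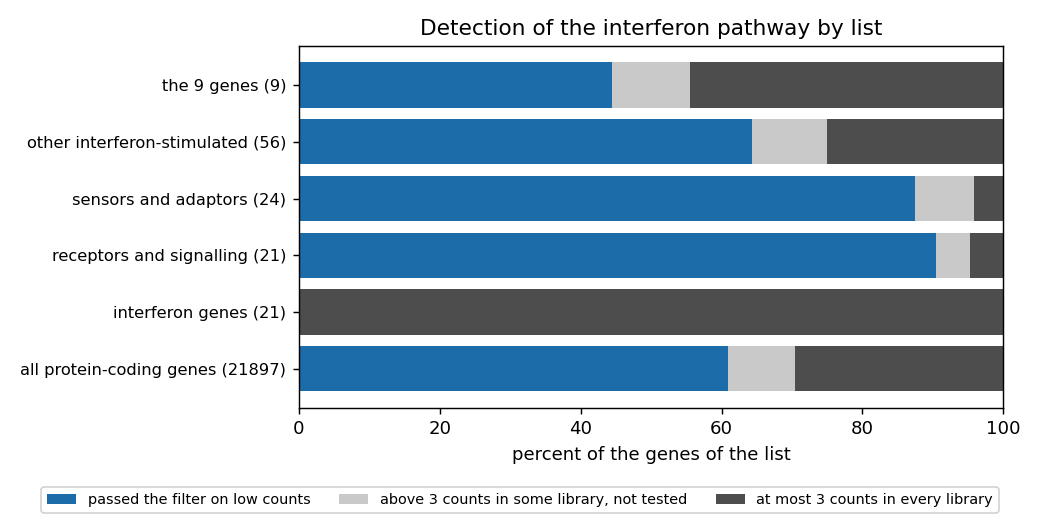
Share of the genes of each list, in percent, that passed the filter on low counts, exceeded 3 counts in some library without passing it, or had at most 3 counts in every library, beside all protein-coding genes. The interferon genes are all at the floor, and 4 of the 9 interferon-stimulated genes are, whereas 19 of 21 receptor and signalling genes and 21 of 24 sensors and adaptors were tested.

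The promoters of the tested genes and of those at or near the floor were set side by side as a description. Taking the promoter with the most CpG where a gene has several, the 4 members at the floor held between 3 and 7 CpG in 300 bases and the 4 tested members between 9 and 22, with 14 in Ifih1. Among the members only Ifit2 and Irf9, both tested, had several promoters. The other promoter of Ifit2 held 10 CpG and that of Irf9 held 1, below every member at the floor. Among the other interferon-stimulated genes with a promoter, the median was 2 CpG over 8 genes at the floor (0 to 11) and 8 over 29 tested genes (1 to 43), against a median of 8 over all genes. The ISRE core was found in 5 of those 8 genes at the floor and in 9 of the 29 tested genes. Among the 9 members they were found in 2 of the 4 at the floor, Isg15 and Ifit1, and in 2 of the 4 tested, Stat2 and Bst2. No p is given for these counts.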

How the data were processed

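Per the labels and the study's methods, RNA was extracted with TRIzol, and the authors trimmed reads with Cutadapt (1.9.1) and mapped them to mm10 with HISAT2 (2.0.1). HTSeq (0.6.1) and DESeq2 are also in the submitters' processing notes. The strand setting, the handling of multi-mapping reads and the annotation release are not given in the sources used here. The authors deposited raw counts per gene and library, without normalization, and FPKM, whose scale is exonic length and library total (recomputed from the counts to within 0.006 in 100% of values).

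Counts were analysed with edgeR (4.0.16) in R (4.3.3): filter on low counts, TMM, quasi-likelihood test without a block, Benjamini-Hochberg adjustment over the 15580 genes tested. Calls needed an adjusted p under 0.05 with more than a 2-fold change. Standard errors are the absolute log2 fold change over the root of F, and 95% intervals use the residual and prior degrees of freedom. DESeq2 (1.42.0) and limma (3.58.1) on log2(FPKM + 0.1) or log2(FPKM + 1), keeping genes that reached 0.5 FPKM in 2 libraries or more, served as alternatives, as did other scalings, filters and thresholds, libraries thinned to equal totals, a replicate block and leaving out each library. Likeness used log2(CPM + 0.1). The fit was also run on simulated counts with the same spread for every gene and changes larger than those of the members. That setting is unlike these data, and its outcome is not used here. Replicates differed by more than sampling noise, with a chi-square of 6.99 per degree of freedom in WT and 5.49 in Haspin-KO.

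Members and lists were chosen with earlier results of these data known. All members are named, and for each list the genes called or, where fewer than 3 were, the 3 with the smallest unadjusted p. Other pathway genes were named after their values were seen. Promoters and their sequences are from RefSeq (GRCm38.p6), and exon overlaps from GENCODE M21 (GRCm38), the same build as mm10. Some genes of the lists are counted with their list and not reported here by name.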

Additional observations from a re-analysis of the deposited data

How the results depend on the processing

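The 4 tested members kept the direction of their log2 fold change under every alternative that gave a value, from 0.41 to 0.70 for Ifit2, -0.16 to -0.014 for Irf9, -0.59 to -0.36 for Stat2 and -1.01 to -0.45 for Bst2. The number of members called higher was 0 under all alternatives, and the number called lower was 0 except that it ranged from 0 to 1 with a library left out, which was Bst2 without Haspin-KO replicate 2. A lone library in a group was assumed to vary like the others. Pathway genes called higher stayed at 0. Pathway genes called lower numbered 1 without the filter (Oasl1), 1 with the replicate block (Oasl1), 1 with no fold minimum (Ifitm1), and 0 to 1 with a library left out (Oasl1 without Haspin-KO replicate 1, Tor3a without replicate 2). The fibroblast markers called lower numbered 8, against 3 with at least 10 counts in every library, where fewer genes were tested, 0 and 0 in limma on FPKM with either pseudocount, and 6 to 9 with a library left out. With either pseudocount limma called 0 of the 14817 genes it tested, so its counts of 0 say nothing of any list, and at an unadjusted p under 0.05 it gave 1245 genes higher and 1491 lower with a pseudocount of 0.1 and 1264 and 1508 with 1. DESeq2 called 6 of the fibroblast markers lower, and edgeR called 7 with library totals and 10 without the filter. At a 1.5-fold minimum, or with no fold minimum, edgeR called 9. The cause of the other shifts was not tested.

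The replicate numbers come from the labels, with no statement that equal numbers mark a shared preparation. The differences between replicates correlated between WT and Haspin-KO at r = 0.289 across 15580 genes, which are not independent. With the replicate block, the adjusted p from edgeR was 1.2e-05 for Stat2 and 2.1e-07 for Bst2, at log2 fold changes of -0.46 and -0.72, and 11.2% of tested genes were lower and 11.4% higher at an adjusted p under 0.05. The block called 0 of the 9 members, since both differences stayed under 2-fold. It left 1 residual degree of freedom, and its prior degrees of freedom were infinite, against 2 and 7.42 in the main fit. The p-values of the block therefore rest on a spread pooled over genes and not on the spread of each gene. Those of the main fit weigh both. Depth limits the 5 genes at or near the floor, for which no fold change is given.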

Other observations

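Tor3a, an interferon-induced gene of the torsin family, had 6.68 and 14.4 CPM in WT cells and 4.25 and 13.4 CPM in Haspin-KO cells, so replicate 2 was the higher library in both groups, as it was for Ddx58. Tor3a did not pass the test (log2 fold change -0.24, SE 0.46, edgeR adjusted p = 0.809). Phf11d, another interferon-stimulated gene, was among the more abundant of its list, with 105.6 and 100.7 CPM in WT cells and 117.0 and 107.8 CPM in Haspin-KO cells (adjusted p = 0.417). Eif2ak2, which encodes the RNA-dependent kinase PKR, had 51.2 ± 1.98 and 54.6 ± 5.07 CPM, and Adar, the RNA editing enzyme, had 80.7 ± 2.45 and 80.7 ± 3.004 CPM (SD, n = 2 libraries each), with adjusted p values of 0.615 and 0.9999 from edgeR.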
